A study of Mus musculus with 52 samples.

Results

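Endothelial cells (ECs) of the anterior and the posterior pituitary were compared by RNA-seq in wild type (WT) mice. The comparison rests on 4 of the 52 samples of the series, 2 pools of GFP-positive cells from the anterior pituitary and 2 from the posterior pituitary, chosen by their labels alone. All 4 came from adult male mice that carry the Tie2-GFP transgene, in which the promoter of the EC receptor Tie2 (Tek) drives GFP; this promoter is also active in some blood cells. Each pool combined the pituitaries of 20 to 30 mice between postnatal days 30 and 90, and cells were separated by fluorescence-activated sorting. The GFP-negative cells of the same lobes (2 pools per lobe, same genotype, age and sex), which are the surrounding parenchyma, and GFP-positive cells of the WT cerebellum (2 pools) served as references. A second genotype, labelled Tie2-GFP; Pdgfb-CreER; BcatEx3fl, carries in addition a tamoxifen-dependent Cre recombinase made in ECs from the Pdgfb promoter and a Ctnnb1 allele whose exon 3 is removed by that Cre, which stabilizes beta-catenin. Those mice received 100 µg of 4-hydroxytamoxifen at postnatal day 10, were also adult males, and gave 2 GFP-positive pools per lobe. One of them, stabilized anterior replicate 2, is named for the anterior pituitary in its title and for the posterior pituitary in its tissue label, so results that use it are given with and without it.

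The anterior pituitary is an endocrine gland whose capillaries receive hypothalamic releasing factors from portal vessels and carry away the hormones of the gland. The posterior pituitary is an outgrowth of the brain in which axon terminals release oxytocin and vasopressin, and it belongs to the circumventricular organs, the parts of the brain that lack a blood-brain barrier. Capillaries of both lobes are fenestrated: their ECs hold pores that are bridged by diaphragms of the protein PLVAP. In most other brain capillaries, canonical Wnt signaling through beta-catenin keeps ECs in a barrier state with tight junctions, specific transporters and no fenestrae.

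The 4 libraries had total estimated counts of 31604109 and 29837291 for the anterior lobe and 28788137 and 17260078 for the posterior lobe. Between 10512 and 12035 genes reached 1 TPM, a level scaled for library size and transcript length. The replicates correlated at a Pearson r across genes of 0.914 (anterior) and 0.856 (posterior) on log2(CPM + 1) (CPM is the count scaled for library size) and libraries of different lobes at 0.813 to 0.883; genes are not independent replicates. The labels say nothing of separate cultures or litters beyond the pools, so p-values measure the spread between these pooled samples. In pooled cells, fewer cells of a type and less RNA per cell cannot be told apart.

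The sorted cells carried EC transcripts in both lobes. The 16 EC markers summed to 3788 and 5572 TPM in the anterior libraries and to 8848 and 6235 TPM in the posterior libraries, and to between 4.21 and 38.6 TPM in the GFP-negative libraries. None of the 16 was at 0 in a pituitary EC library. Transcripts of neighbouring cells were present as well. The 19 endocrine markers of the anterior lobe include Pomc, which melanotrophs also express; the other 18 summed to 7137 and 4691 TPM in the anterior ECs and to 279.2 and 48.97 TPM in the posterior ECs (7437 and 4823 against 3586 and 519 TPM with Pomc). Of the 19, 3, the hormone genes Gh, Prl and Cga, were called higher in the anterior ECs. The 5 melanotroph markers, which mark the intermediate lobe, summed to 302 and 134 TPM (anterior) and 3325 and 473 TPM (posterior), nearly all of it Pomc. The same 5 markers summed to 54161 and 56353 TPM in the posterior GFP-negative libraries, so that melanotroph transcripts led the cells labelled non-endothelial from the posterior pituitary. The pituicyte marker Rax was at 0 in all 4 EC libraries. It was also at 0 in both anterior GFP-negative libraries and at 0 and 8.76 TPM in the posterior ones, so its absence says little. The 8 pituicyte markers, which mark the resident glia of the posterior lobe, summed to 34.3 and 36.7 TPM (anterior) and 11.2 and 4.28 TPM (posterior), with Adm and Col25a1 the highest members in each library. In GFP-negative cells the 8 summed to 31.5 and 23.7 TPM (anterior) and 62.8 and 74.9 TPM (posterior). Most of the mural (pericyte and smooth muscle) sum, 191 and 226 TPM in the anterior libraries against 167 and 84.5 TPM in the posterior libraries, came from 3 genes, Kcnj8, Rgs5 and Abcc9, and Cspg4 stayed at or below 0.774 TPM. The 15 macrophage and leukocyte markers summed to 27.2 and 27.1 TPM (anterior) and 17.1 and 0.961 TPM (posterior), and the 7 erythrocyte markers to 1350 to 2210 TPM and 1550 to 5290 TPM. What these cells contribute to a single difference was not tested, and the GFP-negative level of a gene is given where it bears on its call.

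**Figure D1:**
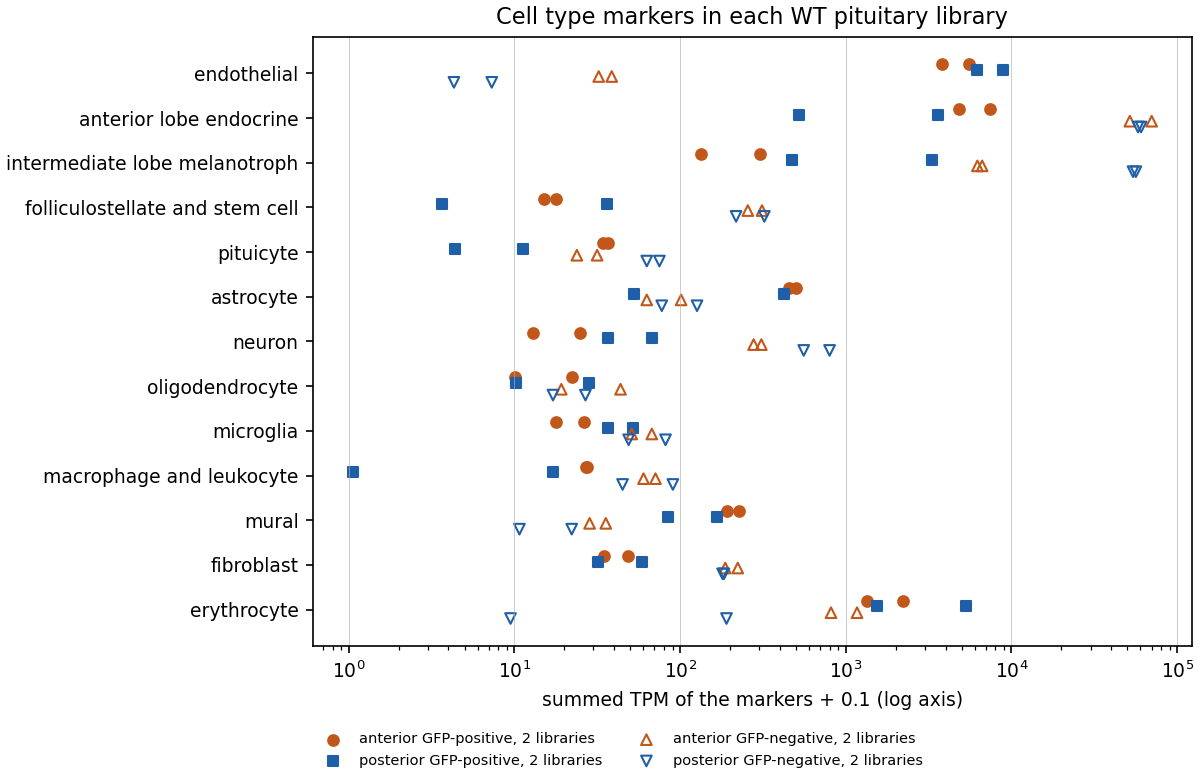
Summed TPM + 0.1 of each cell type marker list (horizontal log axis; 1 row per list) in the WT pituitary GFP-positive and GFP-negative libraries, 1 point per library. EC markers lie between 3788 and 8848 TPM in the 4 pituitary EC libraries and at or below 38.6 TPM in the GFP-negative ones, while endocrine and melanotroph sums are lower in ECs than in the parenchyma of the same lobe.

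The posterior pituitary ECs had the longer list of genes called higher than in the other lobe in the main fit. The genes with its largest fold changes included the matrix gene Fbln2, the chemokine gene Cxcl12 and the carbonic anhydrase gene Car4. Those of the anterior pituitary ECs included genes of a potassium channel subunit (Kcnj8), a muscarinic receptor (Chrm3) and the matrix protein multimerin 1 (Mmrn1). Of 17915 genes tested with edgeR's quasi-likelihood test, 61 were higher in the anterior ECs (0.340%) and 117 in the posterior ECs (0.653%) at a Benjamini-Hochberg adjusted p under 0.05 and at least 2-fold. A further filter kept genes that were also enriched in ECs over the GFP-negative cells of the same lobe (919 genes in the anterior lobe, 4.31% of 21343 tested, and 1150 in the posterior, 5.39%) and that reached 10 TPM in both replicates. It left 21 genes higher in the anterior ECs (0.117%) and 55 higher in the posterior ECs (0.307%). Which list was longer depended on the fit. Before the EC filter the lists were close in length with all 24 sorted libraries (74 anterior and 78 posterior), and the anterior list was the longer without posterior replicate 1. Without stabilized anterior replicate 2, which is in neither WT group but bears on the filter for low counts and on the shared estimate of spread (20121 genes tested), the counts were 186 and 313, with 50 and 121 past the EC filter. Without posterior replicate 1 they were 524 and 353, with 54 and 162 past the filter, and without anterior replicate 1 the filter left 35 genes higher in the posterior ECs. The median fitted log2 fold change over the 8416 genes of at least 1 TPM in the 4 libraries was -0.01, while the median TPM difference on log2(TPM + 0.1) was -0.28, so that TPM values as a whole sat slightly higher in the posterior libraries. TPM of the groups did not overlap for all 21 and all 55 genes, against a background of 813 (9.66%) with the anterior higher and 2483 (29.5%) with the posterior higher among the 8416. With an offset for the transcript length that Salmon estimated in each library, 26 and 60 genes were called, 7 and 25 of them past the EC filter, and 77 of the 178 called genes kept their call. An exact permutation test of 2 against 2 samples cannot give a p below 0.333, so genes were tested only in fits across all genes, which share the estimate of spread.

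**Figure D2:**
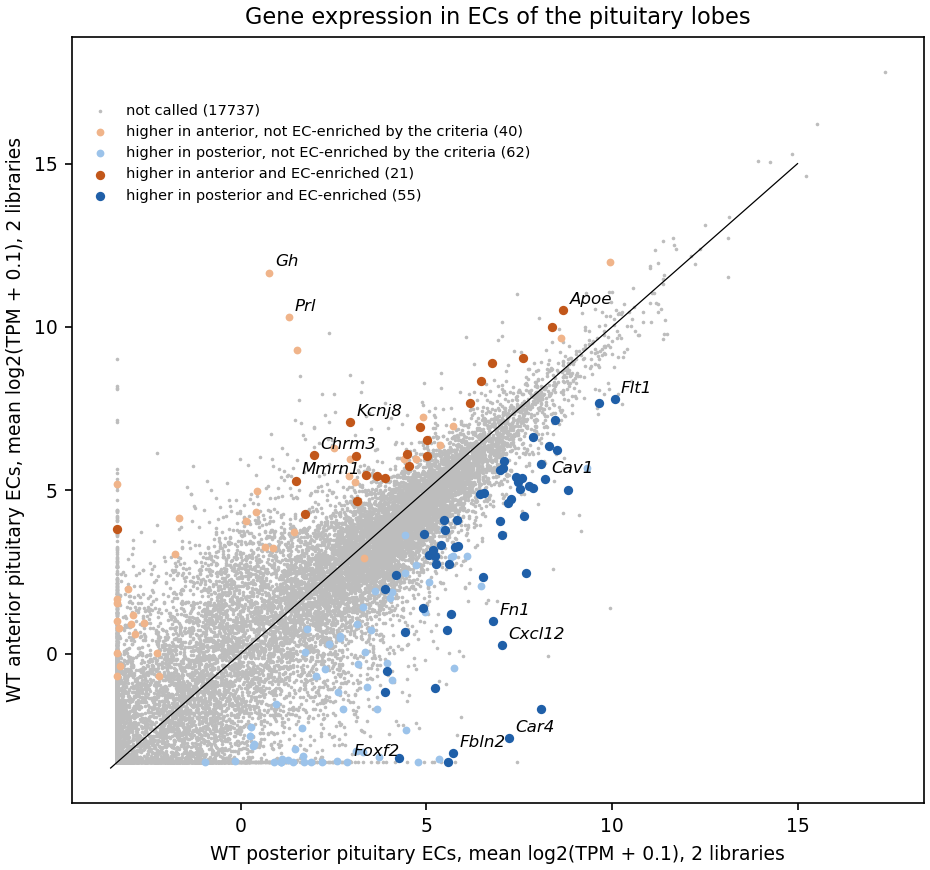
Mean log2(TPM + 0.1) of each gene in WT posterior (horizontal) and WT anterior (vertical) pituitary ECs, n = 2 per lobe; the line marks equal levels. Grey points are genes that were not called, and coloured points are the 61 and 117 called genes, with the 21 and 55 that passed the EC filter in the darker shade.

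Of the 55 EC-enriched genes higher in the posterior ECs, 9 were called under every one of the 14 alternatives: Car4, Gcnt2, Emp2, Fn1, Slc6a6, Colgalt2, Rassf9, Cxcl12 and Fbln2. The others lost their call under at least 1 of them. Several of the 55 encode matrix or adhesion proteins. Fbln2 (chr6:91212455-91272540 on GRCm38, + strand), which encodes the extracellular matrix protein fibulin 2, was at 0.0254 and 0.0177 TPM in the anterior ECs and at 80.4 and 34.6 TPM in the posterior ECs. Both posterior libraries stood far above both anterior libraries, in which only 2 and 5 reads were assigned to the gene. The log2 fold change, given throughout as anterior minus posterior from the count fit, was -10.82 ± 0.83 (SE, adjusted p = 3.48e-05). Fn1 (chr1:71585520-71653200, - strand), which encodes fibronectin, was at 3.34 and 1.05 TPM against 97.4 and 126 TPM, again without overlap (log2 fold change -5.01 ± 0.44, adjusted p = 0.000102). Emp2, a small membrane protein that regulates integrins, was at 3.27 and 0.724 TPM against 54.2 and 41.1 TPM, and the collagen-binding integrin subunit Itga1 at 11.2 and 8.14 TPM against 48.6 and 60.3 TPM. Both were called, at adjusted p values of 0.00894 and 0.000951. Colgalt2, a collagen galactosyltransferase, differed less (log2 fold change -2.37 ± 0.27, adjusted p = 0.000676), and its 4 libraries did not overlap either. Ltbp4, a matrix protein that binds latent TGF-beta, was at 6.15 and 25 TPM against 107 and 163 TPM (adjusted p = 0.00138).

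The chemokine gene Cxcl12, whose product signals through Cxcr4, was at 0.389 and 2.83 TPM in the anterior ECs and at 184 and 93.7 TPM in the posterior ECs (chr6:117168535-117181367, + strand). Both anterior libraries stayed far below the lower posterior library, at a log2 fold change of -7.35 ± 0.68 (adjusted p = 0.000151). In GFP-negative cells Cxcl12 ran the other way, at 17.2 and 19 TPM in the anterior lobe and 3.44 and 0.0767 TPM in the posterior lobe, and the lobe difference of ECs differed from that of the GFP-negative cells (adjusted p = 0.00038).

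Other called posterior genes encode enzymes and transporters. Car4 (chr11:84957786-84966044, + strand), a carbonic anhydrase anchored on the luminal side of capillaries, was at 0 and 0.179 TPM in the anterior ECs and at 256 and 86.4 TPM in the posterior ECs. Its mean was 0.0896 ± 0.127 TPM (SD, n = 2) against 171 ± 120 TPM (SD, n = 2). With 0 and 3 reads in the anterior libraries, the ratio of depth-scaled counts was 1901, with a 95% counting interval of 650 to 9224 that covers counting error only, and the adjusted p was 3.48e-05. Slc26a10, a member of an anion transporter family, had no read in either anterior library and 70.4 and 33.1 TPM in the posterior libraries, at least 826-fold higher when the anterior libraries are set to a floor of 3 counts each (adjusted p = 0.00298). Fmo2, a flavin-containing monooxygenase, was at 0.646 and 0.0287 TPM against 136 and 539 TPM, and the posterior libraries themselves stood far apart (adjusted p = 0.00465). Alpl, the tissue-nonspecific alkaline phosphatase, was at 2.31 and 12.6 TPM against 279 and 152 TPM (adjusted p = 0.00845). The taurine transporter Slc6a6 was at 18.8 and 17.9 TPM against 252 and 158 TPM (log2 fold change -2.81 ± 0.3, adjusted p = 0.000616). Gcnt2, which makes branched glycans, was at 2.54 and 1.9 TPM against 78.5 and 32.7 TPM (adjusted p = 0.000102). Serpina1b, a serine protease inhibitor, was at 0 and 0.0216 TPM against 17.7 and 20.7 TPM, but it has near-identical paralogs between which reads can be split, and its call was lost without anterior replicate 1 (adjusted p = 0.115) and without anterior replicate 2 (adjusted p = 0.0678), within a range of 3.18e-08 to 0.115 over the 14 alternatives.

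Among receptors and other surface genes, Cav1, the structural protein of caveolae, was at 68.4 and 24.1 TPM in the anterior ECs and at 360 and 242 TPM in the posterior ECs. The lobes did not overlap (log2 fold change -3.42 ± 0.32, adjusted p = 0.000151), and GFP-negative cells held at most 0.173 TPM. Cd300lg, a glycoprotein of capillary ECs, was at 41.4 and 25.1 TPM against 548 and 365 TPM (adjusted p = 0.00967). The pentaspan membrane protein Prom1 was at 0.123 and 2.06 TPM against 19.2 and 12.4 TPM (adjusted p = 0.00665), and Rassf9, a protein linked to endosome recycling, at 0.225 and 0.61 TPM against 45.2 and 31.2 TPM (adjusted p = 7.22e-05). The VEGF receptor Flt1 was abundant in both beds, at 210 and 232 TPM against 1103 and 1054 TPM, with close agreement between replicates. Its log2 fold change in the count fit was -1.81 ± 0.3 (adjusted p = 0.0118), and the call was lost by a small margin without anterior replicate 1 (adjusted p = 0.0519; range over the alternatives 3.24e-11 to 0.487). Kitl, the ligand of the receptor Kit, and Ceacam1, a cell adhesion molecule, were also higher in the posterior ECs, at log2 fold changes of -2.81 ± 0.31 and -2.48 ± 0.27. The muscarinic receptor gene Chrm2 was at 0.404 and 0.287 TPM against 21 and 10.3 TPM and at 0 in all GFP-negative and cerebellum EC libraries (adjusted p = 0.016). The call of Chrm2 did not hold without anterior replicate 1 (adjusted p = 0.0543), anterior replicate 2 (0.0897) or posterior replicate 2 (0.138), within a range of 7.71e-09 to 0.291.

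Of the 21 EC-enriched genes higher in the anterior ECs, 2 were called under all 14 alternatives, Kcnj8 and Mmrn1. Mmrn1 (chr6:60924976-60989378, + strand) encodes multimerin 1, a large protein stored in and released by ECs and platelets that joins the matrix. It was at 39 and 39.6 TPM in the anterior ECs, 3.18 and 2.29 TPM in the posterior ECs, and 0 in all 4 GFP-negative libraries. The anterior replicates were nearly equal (39.3 ± 0.373 TPM, SD, n = 2), and the log2 fold change was 4.02 ± 0.28 (adjusted p = 3.48e-05). Kcnj8 (chr6:142564837-142571614, - strand) encodes the pore subunit of an ATP-sensitive potassium channel. It was at 127 and 148 TPM against 8.91 and 6.54 TPM, at most 3.44 TPM in GFP-negative cells, and its log2 fold change was 4.43 ± 0.43 (adjusted p = 0.000244). Kcnj8 is also a pericyte gene. Of 11 mural markers tested, the fitted difference was positive for 3 and negative for 8, with a median of -0.94. Over the 3 markers of at least 1 TPM in all 4 libraries the median was 1.49. Of the other mural genes, Rgs5 went the other way (41.2 and 45.2 TPM against 123 and 59.4 TPM), the channel partner Abcc9 was at 19 and 28.1 TPM against 5.69 and 12 TPM, and Notch3 was called higher in the anterior ECs at levels below 1 TPM (0.421 and 0.636 TPM against 0.155 and 0.089 TPM, adjusted p = 0.00733). Pdgfrb was called higher in the posterior ECs at low levels (0.347 and 0.764 TPM against 4.86 and 3.23 TPM, adjusted p = 0.027), and that call was lost without anterior replicate 1 (adjusted p = 0.142).

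The muscarinic receptor gene Chrm3, unlike Chrm2, was an anterior gene: 57.8 and 79.7 TPM in the anterior ECs and 3.48 and 4.26 TPM in the posterior ECs. It was at or below 0.603 TPM in all GFP-negative libraries and at or below 0.00455 TPM in the cerebellum ECs (log2 fold change 3.64 ± 0.51, adjusted p = 0.00559). Mal, a membrane raft protein, was at 72.2 and 61.3 TPM against 15.6 and 4.64 TPM (3.06 ± 0.39, adjusted p = 0.00193). The lipid carrier gene Apoe was the most abundant of these genes, at 1269 and 1684 TPM against 617 and 277 TPM (adjusted p = 0.0142). The next level down was Itm2a, a membrane protein gene, at 1019 and 1045 TPM against 450 and 245 TPM (adjusted p = 0.00528). Chn2, a Rac GTPase-activating protein, Serpinb6b, a protease inhibitor, and Pdia5, a protein disulfide isomerase, had log2 fold changes of 2.38, 2.31 and 2.32 (adjusted p values of 0.00626, 0.00948 and 0.0106). Krt80, a keratin gene, and Trp53i11, a gene induced by p53, were called at 2.79 and 2.36. Both calls were lost without posterior replicate 2, at adjusted p values of 0.0966 and 0.0662 (ranges over the alternatives 8.06e-07 to 0.391 and 2.11e-11 to 0.232). Gm49393 had no read in the posterior libraries and 11.8 and 16.3 TPM in the anterior ones, at least 55.7-fold higher, but its annotation overlaps Ctla2a and Ctla2b on the same strand, so its reads are uncertain. For Trp53i11 and Chn2 the parenchyma went the other way, with 60.7 and 63 TPM against 208 and 331 TPM for Trp53i11 in GFP-negative cells, and the EC lobe difference differed from the GFP-negative one (adjusted p = 0.0029 and 0.0011).

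**Figure D3:**
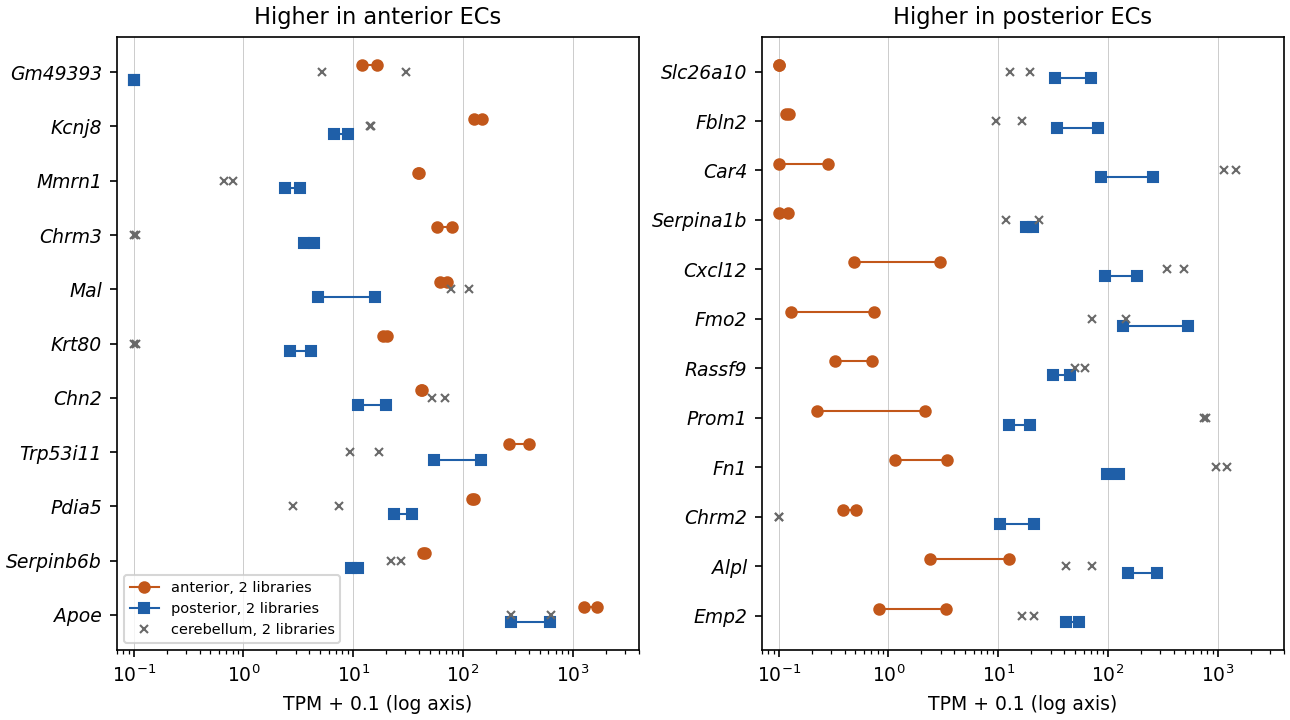
Levels (log axis) of EC-enriched genes among the 12 with the largest fold change in each direction, on TPM + 0.1, with circles for the 2 WT anterior and squares for the 2 WT posterior pituitary EC libraries, joined by a line, and crosses for the cerebellum ECs. For each gene shown the points of one lobe lie wholly to one side of those of the other.

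Open chromatin of the same sorted cell types was read from ATAC-seq peaks, regions where a transposase cuts accessible DNA. Peaks had been called per library, and those above 2 both in enrichment over background and in -log10 q-value numbered 36860 and 45040 in the WT anterior ECs and 21050 and 20634 in the WT posterior ECs. Of the peaks present in both replicates, 13450 of 32728 in the anterior lobe overlapped no peak of the posterior lobe, against 316 of 17524 in the posterior lobe. The anterior libraries therefore gave more peaks near genes of any kind. An anterior-only peak lay within 100 kb of all 21 EC genes higher in the anterior ECs, but also of 45 of the 55 higher in the posterior ECs (81.8%), of 90.5% of the 1372 genes enriched in ECs of either lobe and of 75.6% of all tested genes. A posterior-only peak lay within 100 kb of 4 of the 55 posterior genes (7.27%), of 1 of the 21 anterior genes (4.76%), of 4.37% of the 1372 EC-enriched genes and of 3.64% of all tested genes. At the gene start itself (within 1 kb) 2 of the 21 and 1 of the 55 had a peak of their own lobe alone, against 9.04% and 0.146% of the EC-enriched genes and 6.12% and 0.0615% of all tested genes for anterior-only and posterior-only peaks.

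The 2 peaks shown here were chosen among anterior-only peaks within 100 kb of the anterior genes that led the RNA comparison. The choice was by high fold enrichment in both replicates and a window that overlaps no annotated exon. Their enrichment in the anterior ECs and absence from the posterior ECs therefore follow from the choice of these peaks. Each is the 201 bases around the summit in GRCm38, read 5′ to 3′ on the + strand, and capitals mark the letters TGACTCA or TGAGTCA, the motif bound by AP-1 transcription factors, searched on both strands and in this form not overlapping another of the motifs searched. The Kcnj8 window (chr6:142559052-142559252) lies 5585 bases beyond the end of that gene, in a peak with fold enrichments of 12.1 and 13.6 in the anterior ECs and none in the posterior ECs. The Mal window (chr2:127649991-127650191) lies inside the Mal gene body, in an anterior-only peak with fold enrichments of 9.13 and 9.72.
Kcnj8: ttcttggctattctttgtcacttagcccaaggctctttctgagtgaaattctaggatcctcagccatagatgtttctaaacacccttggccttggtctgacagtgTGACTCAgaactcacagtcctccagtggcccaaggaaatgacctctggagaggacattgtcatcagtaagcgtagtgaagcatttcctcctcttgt
Mal: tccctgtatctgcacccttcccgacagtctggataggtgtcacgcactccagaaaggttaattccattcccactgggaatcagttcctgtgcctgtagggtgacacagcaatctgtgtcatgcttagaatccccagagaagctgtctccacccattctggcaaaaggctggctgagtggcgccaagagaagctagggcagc
The Kcnj8 window holds TGACTCA on the + strand, while the Mal window holds neither it nor the other motifs searched (AGGAAG for ETS, TGTTTAC for FOX, and TTCAAAG or ATCAAAG for TCF/LEF factors). The AP-1 letters occur in 8.08% of all anterior windows of this length, so a match describes the sequence and does not mark a binding site.

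Plvap, the gene of the fenestral diaphragm, was abundant in both lobes. It was at 845 and 1028 TPM in the anterior ECs and at 1160 and 1112 TPM in the posterior ECs, against 0 and 10.7 TPM in the cerebellum ECs. The anterior libraries lay slightly below the posterior ones in TPM, and the replicates of each lobe lay close together. The log2 fold change was 0.05 ± 1.39 (adjusted p = 1), an SE at which the fit could not have detected a difference of a few fold. That SE uses the spread within all groups of the fit, among them the cerebellum ECs, whose replicates lay far apart. It is therefore not a measure of the spread between the pituitary pools alone. What the cerebellum libraries contribute to it was not tested. Of 10 diaphragm and caveola genes, Cav1 alone was called, and the median log2 fold change was -0.33. Several barrier genes were far below their cerebellum level in both beds. The tight junction gene Cldn5 was at 23.4 and 21.9 TPM against 37.2 and 13.2 TPM (453 and 511 TPM in the cerebellum ECs), and the glucose transporter Slc2a1 at 10.8 and 16.7 TPM against 21.1 and 24.8 TPM (1579 and 1625 TPM). The lipid transporter Mfsd2a was at or below 0.0335 TPM in all 4 libraries. The drug efflux pump Abcb1a was at 186 and 173 TPM against 62.9 and 30.7 TPM, yet had 3646 and 5600 estimated counts against 7518 and 3849, so that TPM and counts differed in direction, and it was not called (adjusted p = 0.444). Among 27 junction genes tested, 1 was called, the connexin Gja5, which had no read in the anterior libraries and 3.56 and 3.71 TPM in the posterior ones (at least 193-fold). The 16 EC markers themselves had 1 call, Flt1, and Pecam1 missed the threshold at 247 and 249 TPM against 1031 and 748 TPM (log2 fold change -1.11 ± 0.24, adjusted p = 0.0546).

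The 20 lists of endothelial and pathway genes held 527 distinct tested genes, of which edgeR called 10 higher in the anterior and 36 in the posterior ECs, at 0 to 8 calls a list. DESeq2, which called 3.37% and 3.78% of all genes, called 37 and 89 of them, at 1 to 17 calls a list, among them 17 transcription factor, 15 BMP and TGF-beta, 14 matrix, 11 guidance and 10 Notch and arterial genes; the counts below are those of edgeR. In each case the background was 0.340% of genes higher in the anterior and 0.653% higher in the posterior ECs, and members below 10 TPM are named here after their values were seen. Of 23 Notch and arterial genes, 4 were higher in the posterior ECs and none in the anterior, with a median of -1.28: Cxcl12, the kinase Bmx (no read in the anterior libraries), Gja5 and the semaphorin Sema3g. Sema3g was at 7.04 and 8.97 TPM against 34.8 and 32.5 TPM. Other arterial genes did not pass the test, such as Notch1 at 297 and 208 TPM against 298 and 241 TPM. Of 42 basement membrane and matrix genes, 5 were higher in the posterior (Fbln2, Fn1, Sparcl1, Fbn1, Col18a1) and 1, Mmrn1, in the anterior ECs, with a median of -1.14. Sparcl1 was at 32.7 and 79.3 TPM against 725 and 579 TPM (adjusted p = 0.000485), but GFP-negative cells of the posterior lobe also held 374 and 586 TPM. The major basement membrane collagen Col4a1 was at 662 and 1160 TPM against 1691 and 4832 TPM and was not called (adjusted p = 0.399).

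Of 22 genes of capillary lipid uptake, Cd300lg, Acvrl1 and the fatty acid transporter Cd36 were higher in the posterior ECs. Cd36 had no read in either anterior library and 23.9 and 31.7 TPM in the posterior libraries, at least 454-fold higher (adjusted p = 0.000865). The fatty acid-binding protein gene Fabp4 was at 385 and 262 TPM against 229 and 262 TPM, with overlap, and Gpihbp1, the anchor of lipoprotein lipase, at 92.2 and 122 TPM against 417 and 280 TPM without a call (adjusted p = 0.499). Of 28 barrier transporters, 5 were higher in the posterior ECs and 3 in the anterior. The posterior set was Slc6a6, the organic anion transporters Slco1a4, Slco1c1 and Slco2b1, and the efflux pump Abcc4. Slco1a4 was at 7.12 and 0.859 TPM against 21.4 and 42.6 TPM (adjusted p = 0.00435), far below the 557 and 698 TPM of cerebellum ECs. The anterior set was the glutamine transporter Slc38a3 (28.9 and 9.41 TPM against 0.848 and 1.2 TPM), the organic anion transporter Slc22a8 and the iron exporter Slc40a1, the last 2 of them at or below 1.51 TPM.

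The 33 Wnt genes summed to 829.5 and 923 TPM in the anterior and 1681 and 1446 TPM in the posterior ECs (1809 and 2499 TPM in the cerebellum ECs) and gave 2 calls, both posterior: the receptor Fzd6 (0.646 and 0.797 TPM against 15.3 and 15.1 TPM, adjusted p = 0.000667) and Reck, a co-receptor for Wnt7 ligands (1.36 and 1.32 TPM against 6.92 and 5.75 TPM). The receptor Fzd4 was at 35.2 and 40.4 TPM against 91.4 and 95.2 TPM and was not called (adjusted p = 0.131). The Wnt target genes Lef1 and Axin2 were at or below 6.04 and 3.1 TPM. Among 66 transcription factor genes tested, Lmo2 was called higher in the anterior and Epas1, Tbx3, Foxf1 and Foxf2 in the posterior ECs. Foxf2, a forkhead factor, had no read in either anterior library and 6.91 and 7.51 TPM in the posterior ones (at least 152-fold, adjusted p = 0.000156), and Foxf1 had 12.6 and 1.53 TPM (at least 156-fold). Epas1, which encodes the hypoxia-regulated factor HIF-2 alpha, was at 75.4 and 90.2 TPM against 280 and 355 TPM (adjusted p = 0.0173), and Lmo2, a partner of hematopoietic and endothelial factors, at 454 and 627 TPM against 340 and 110 TPM (adjusted p = 0.0301). The ETS factor gene Erg was at 23.2 and 22.6 TPM against 27 and 26.8 TPM (adjusted p = 1).

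Of 24 VEGF, angiopoietin and apelin genes, Flt1 and the phosphatase Ptprb, which acts on the Tie2 receptor, were higher in the posterior ECs. Ptprb was at 60.5 and 52.3 TPM against 207 and 359 TPM (adjusted p = 0.00626), whereas Kdr, the main VEGF receptor, was at 347 and 372 TPM against 555 and 536 TPM and was not called (adjusted p = 0.704). Of 35 BMP and TGF-beta genes, the receptor Acvrl1 (24.8 and 57.7 TPM against 197 and 162 TPM) and Ltbp4 were higher in the posterior ECs. The co-receptor Eng, at 119 and 223 TPM against 881 and 714 TPM, was not called (adjusted p = 0.164). Of 28 vasoactive genes, endothelin 1 (Edn1, 0.056 and 0 TPM against 16.4 and 5.71 TPM, adjusted p = 0.00203) and the ATP-hydrolysing enzyme Entpd1 (146 and 139 TPM against 523 and 241 TPM) were higher in the posterior and the ATP receptor P2ry1, below 2 TPM, in the anterior ECs. Of 18 venous and leukocyte adhesion genes, von Willebrand factor (Vwf, 0.296 and 0.137 TPM against 6.31 and 25.7 TPM) and the adhesion molecule Vcam1 (0 and 0.00657 TPM against 4.93 and 7.1 TPM) were higher in the posterior ECs, both at an adjusted p of 3.48e-05.

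The remaining lists gave 0 to 3 calls each. The chemokine Cx3cl1 (1.4 and 11.9 TPM against 131 and 60.4 TPM) and the chemokine-binding receptor Ccrl2 joined Cxcl12 among 18 chemokine genes, although GFP-negative cells of the posterior lobe held 39.7 and 58.2 TPM of Cx3cl1. The guidance ligand Sema3c was near 0 in the anterior ECs (0.00844 and 0.00442 TPM) and at 56.1 and 29.6 TPM in the posterior ECs, and its adjusted p was 3.48e-05. The semaphorin receptor Plxna2 was also called. The interferon-induced Gbp3 was the only call among 34 MHC class I and interferon genes (25.9 and 24.7 TPM against 9.8 and 7.7 TPM), and B2m was at 3124 and 3092 TPM against 4241 and 1726 TPM. The mannose receptor Mrc1, a gene of sinusoidal ECs and macrophages, was at 17.5 and 17.6 TPM against 0.0449 and 0.581 TPM (adjusted p = 0.036). It was the 1 call among 14 macrophage and leukocyte markers tested, whose fitted differences were positive for 7 and negative for 4, with a median of 0.08. Cd68 was at 7.86 and 3.51 TPM against 3.23 and 0 TPM, Ptprc, the pan-leukocyte marker, at 0.772 and 0.205 TPM against 6.49 and 0 TPM, and Cd163 at 0 in these libraries. The estrogen receptor gene Esr1 was the only call among 21 IGF and hormone receptor genes, at 5.96 and 2.48 TPM against 0.0349 and 0.012 TPM, and the anterior GFP-negative cells held 44.2 and 42.1 TPM of it. Neither 25 immediate early and stress genes nor 34 cell cycle genes had a call in edgeR's quasi-likelihood test, with medians of 0.94 and 0.93. An unadjusted p under 0.05 was found for 9 and 3 of them, beside 11.6% of all genes, and DESeq2 called 2 and 1, beside 7.15% of all genes. The fitted difference was positive for 22 of the 25 immediate early and stress genes. Fos, an early response gene, was at 790 and 1238 TPM against 610 and 238 TPM.

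Several calls of list members depended on 1 library. Without anterior replicate 1, the adjusted p was 0.0519 for Acvrl1, 0.0534 for Lmo2, 0.0686 for Entpd1, 0.0829 for Epas1 and for Gbp3, 0.086 for Tbx3, 0.147 for Sema3g, 0.18 for Ccrl2, 0.186 for Slco2b1 and 0.203 for Plxna2. Without anterior replicate 2 it was 0.0544 for Epas1, 0.0678 for Lmo2, 0.0838 for Sema3g, 0.102 for Abcc4, 0.108 for Ccrl2 and 0.141 for Plxna2. Leaving out posterior replicate 2 gave 0.0616 for Sema3g, 0.0937 for Lmo2 and 0.195 for Plxna2, and leaving out posterior replicate 1 gave 0.0526 for Ccrl2. Over all alternatives, the adjusted p of these 11 genes ranged from 2.21e-08 to 0.645.

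**Figure D4:**
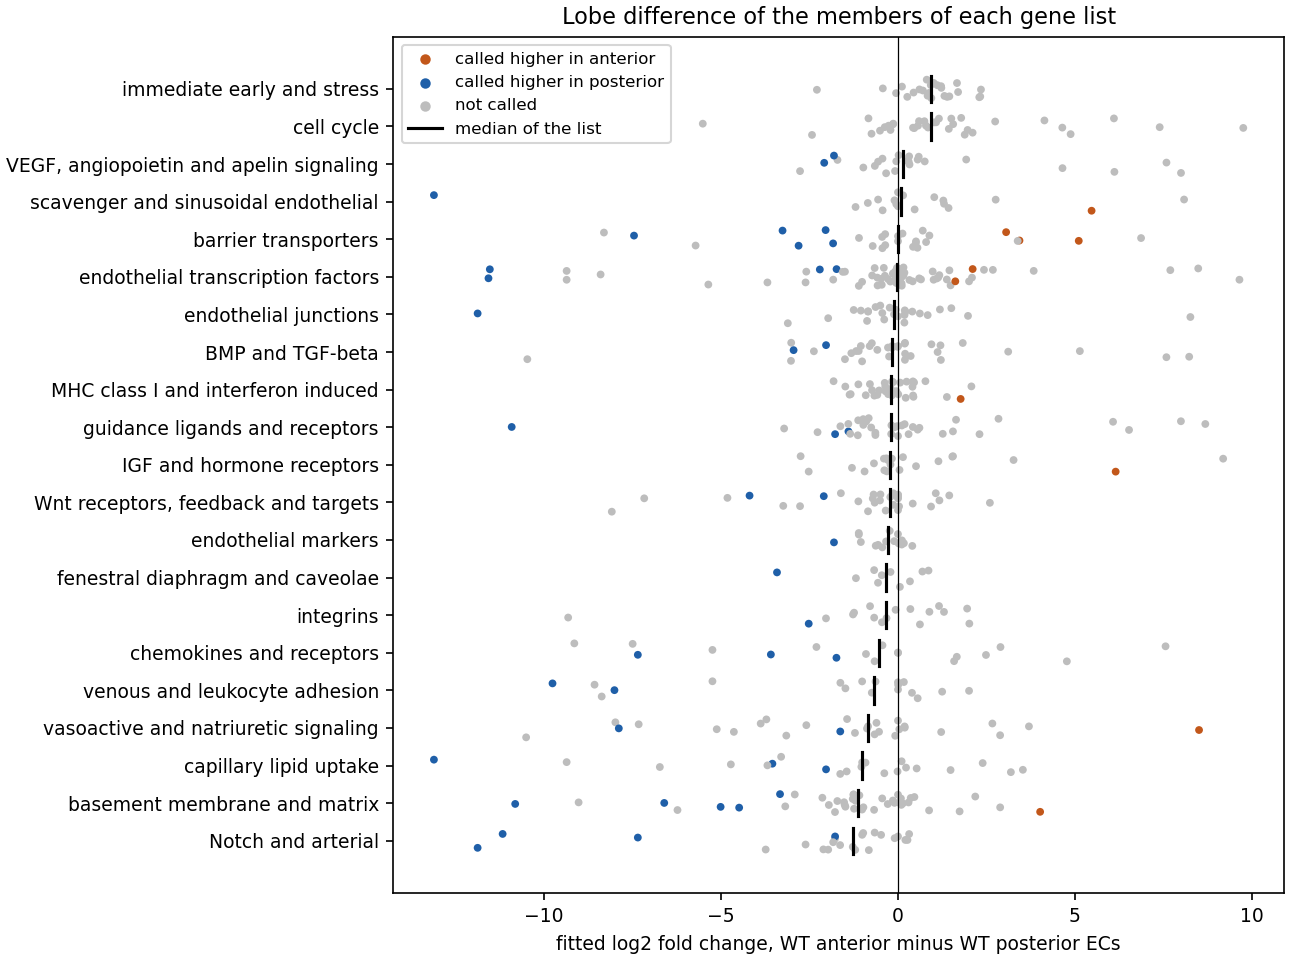
Fitted log2 fold change (anterior minus posterior) of every tested member of the gene lists, 1 point per gene, with called genes in colour, other genes in grey and the list median as a bar. List medians lie between -1.28 and 0.94.

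Of the 178 called genes, 7 of the 61 anterior and 4 of the 117 posterior genes were enriched in GFP-negative cells rather than in ECs of the higher lobe (5.87% and 7.45% of all genes were so enriched), and 33 and 58 were neither. The hormone gene Prl was of the first kind, at 1937 and 816 TPM in the anterior ECs and 1.96 and 2.82 TPM in the posterior ECs, beside 31239 and 45324 TPM in the anterior GFP-negative cells, and Gh was of the last kind, at 3698 and 2852 TPM against 9.69 and 0.19 TPM, beside 3600 and 4640 TPM in the anterior GFP-negative cells. A test of the EC lobe difference against the GFP-negative lobe difference, in all 24 sorted libraries, gave 179 genes of 21343 (0.839%; 511 without posterior replicate 1), among them 3 of the 21 anterior and 21 of the 55 posterior EC genes. Called between the GFP-negative cells of the lobes were 148 genes higher in the anterior (0.693%) and 73 higher in the posterior (0.342%), and 5 of the 21 anterior and 2 of the 55 posterior EC genes were called the same way there.

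The lobe difference was also measured in mice with stabilized beta-catenin, whose libraries are separate pools. There 44 genes were higher in the anterior (0.246%) and 55 in the posterior ECs (0.307%), and 90 and 116 without stabilized anterior replicate 2. Leaving out a WT library, which raised the number of genes tested to between 20217 and 20371 and changed the shared spread, gave 133 (posterior replicate 1) and 136 (posterior replicate 2) for the anterior and 103 (either anterior replicate), 121 and 125 (posterior replicates 1 and 2) for the posterior ECs. Of the EC genes, 19 of 21 anterior and 48 of 55 posterior genes kept their direction, against 51.4% of the 8416 expressed genes, and 4 and 12 were called the same way. Without stabilized anterior replicate 2, these were 18 and 47 genes in direction (51.6% of the expressed genes) and 8 and 16 called. The median log2 fold change went from 2.11 in WT to 1.0 for the anterior genes (1.12 without that library). For the posterior genes it went from -2.27 to -0.77 (-0.92 without that library). Part of such a shrinkage follows from choosing the genes by their WT values. Cell type markers differed between genotypes as well. The 16 EC markers summed to 4311 and 3622 TPM in the stabilized anterior and 2820 and 2540 TPM in the stabilized posterior libraries. In WT they summed to 3788 and 5572 TPM and to 8848 and 6235 TPM. The 15 macrophage and leukocyte markers summed to 140.4 to 269.4 TPM in the stabilized libraries, against 0.961 to 27.2 TPM in WT. What this contributes was not tested. Mmrn1 kept its difference, at 49.3 and 32.8 TPM against 3.5 and 3.48 TPM (log2 fold change 2.93, adjusted p = 0.000873), and so did Kcnj8 (77.8 and 46.1 TPM against 11.9 and 5.84 TPM, adjusted p = 0.0361). Among posterior genes, Rassf9, Cxcl12, Fn1 and Fbln2 were called again. Slco1c1, a thyroid hormone transporter of barrier ECs, was called in both genotypes, at 0 and 0.0162 TPM against 2.51 and 1.72 TPM in WT and at 1.14 and 1.3 TPM against 94.5 and 73.7 TPM in stabilized ECs. The difference between genotypes itself passed the test for 23 genes (0.128%), 18 of them called between WT lobes, and for 137 without stabilized anterior replicate 2. Without one of the WT libraries the count was 49 (anterior replicate 1), 64 (anterior replicate 2), 615 (posterior replicate 1) or 67 (posterior replicate 2). Mal was the 1 EC-enriched anterior gene among them: it was higher in the anterior ECs of WT mice and was at 162 and 148 TPM against 327 and 339 TPM in stabilized ECs (interaction 4.78, adjusted p = 0.00319). Car4 was at 50.1 and 55.7 TPM in stabilized anterior ECs and 199.9 and 168 TPM in stabilized posterior ECs (interaction -8.19, adjusted p = 0.00186), and Flt1 at 244 and 187 TPM against 99.3 and 146 TPM without passing that test (adjusted p = 0.282).

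**Figure D5:**
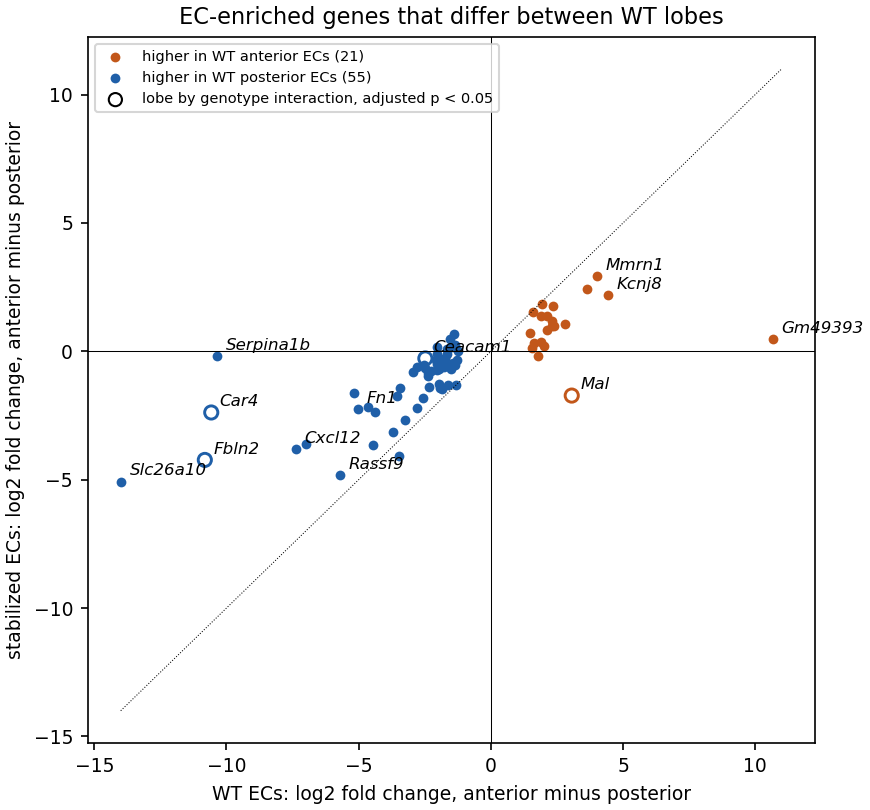
Log2 fold change (anterior minus posterior) in WT ECs (horizontal) against stabilized ECs (vertical) for the 21 anterior and 55 posterior EC genes, 1 point per gene; open circles passed the test of the difference between genotypes and the dotted line marks equal values. Of these, 19 and 48 lie on the same side of 0 on both axes, and most lie nearer to 0 on the vertical axis.

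Cerebellum ECs, the barrier-type bed of the study, give a further reference for the same genes. Their mean log2 level was nearer to the posterior than to the anterior ECs for 39 of the 55 posterior genes and 13 of the 21 anterior genes, against 44.1% of the 8416 expressed genes. Of the 55 posterior genes, 53 were at 10 TPM or more in the cerebellum ECs and 18 were above the posterior level. Car4 (1482 and 1147 TPM), Fn1 (1218 and 962 TPM), Prom1 (752 and 789 TPM) and Cxcl12 (490 and 346 TPM) were higher there than in the posterior ECs. Cd300lg (7.52 and 2.91 TPM) was lower there, and Chrm2 was at 0. Of the anterior genes, 15 of 21 reached 10 TPM in the cerebellum ECs, among them Itm2a at 2002 and 1516 TPM. Mmrn1 (0.709 and 0.565 TPM), Chrm3 (0.00455 and 0 TPM) and Krt80 (0 and 0.00584 TPM) were at or near 0 there. The cerebellum EC libraries held more transcripts of other cells. Their mural markers summed to 1073 and 885 TPM, against 84.45 to 225.8 TPM in the WT pituitary EC libraries. Erythrocyte markers summed to 65219 and 7178 TPM, against 1350 to 5290 TPM. What these cells contribute to the cerebellum levels was not tested.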

How the data were processed

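RNA of sorted cells was amplified and sequenced as single-end reads of 75 cycles. The authors quantified transcripts with Salmon and Ensembl transcripts of GRCm38, and the deposited values are an estimated count and a TPM per transcript (Bowtie2 2.3.2, MACS2 2.1.1.20160309, Salmon 0.10.2 and kallisto 0.44.0 are in the submitters' processing notes). Transcripts were summed to genes with GENCODE M21, and counts were rounded. Of 130740 transcripts, 402 had no match, holding 0.127% to 0.385% of reads per library. Total estimated counts of the 4 WT pituitary EC libraries ran from 17260078 to 31604109. Salmon was set to detect the library type itself and to give incompatible mappings no weight; the type it found is not given in the sources used here, so overlapping and antisense genes are uncertain.

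Lobes were compared with edgeR 4.0.16 (R 4.3.3, limma 3.58.1): TMM, filterByExpr, a quasi-likelihood fit of the 12 GFP-positive libraries with 1 coefficient per group, and Benjamini-Hochberg adjustment over all 17915 genes. Called genes had an adjusted p under 0.05 and at least 2-fold change. EC enrichment and the comparison with GFP-negative cells used all 24 sorted libraries (21343 genes). EBSeq, which the study used, was not used here. Fold changes are of counts without a length term, so they can differ from TPM ratios where transcript use differs. On simulated counts of these libraries, 2%, 28%, 60% and 62% of 50 genes each changed 2-, 4-, 8- and 16-fold were recovered, with 9 false calls among 17171 genes. Set beside the genes recovered, those 9 are more than the 0.05 share of calls that the adjustment aims for. The changed genes were drawn only from genes above a minimum mean CPM, so the recovery does not cover genes near 0. Folds against libraries without reads use a floor of 3 counts per library, and intervals and floors cover counting error only.

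ATAC-seq peaks were called by the authors per library with MACS2, and the deposited columns used are the fold enrichment (a ratio) and the -log10 q-value. Peaks over 2 in both columns were kept, and an overlap of 1 bp counted as shared (bedtools 2.31.1). Gene symbols and coordinates come from GENCODE M21 on GRCm38, and sequences from that genome. Python 3.11.15, pandas 2.3.3, numpy 2.4.6, scipy 1.17.1 and matplotlib 3.10.9 were used.

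Genes named are the 12 with the largest fold change in each direction among EC-enriched called genes, list members called at 10 TPM or more, the 3 highest members of each list, and genes the study names as vascular, barrier, Wnt or pituitary EC transcripts. Others were named after their values were seen. The members and lists were chosen with earlier results of these data known. Alternatives were RLE normalization, no filter, a filter of 50 counts in 2 libraries, fits of 4, 6 or 24 libraries, a replicate block, a length offset, DESeq2 1.42.0, a TPM minimum of 1, EC enrichment in both lobes, stricter peaks, and leaving out each library. Leaving out stabilized anterior replicate 2 and extending the settings to the GFP-negative and stabilized comparisons were chosen after seeing the data. Some results at single genes and regions are not reported here.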

Additional observations from a re-analysis of the deposited data

Results flagged for a closer look

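The lobe difference differed between WT and stabilized ECs for 18 genes called between WT lobes, by edgeR's test of the interaction at a Benjamini-Hochberg adjusted p under 0.05 (0.128% of all tested genes passed it). Without stabilized anterior replicate 2 all 18 interactions kept their sign, at -11.95 for Cd36 and 8.41 for Slc22a8. The values are the WT lobe difference minus the stabilized one on the log2 scale, and those of genes without a read in a lobe depend on the prior count of the fit. The WT lobe difference by which these genes were called is a term of the interaction. Their share among the genes that passed and the signs below therefore follow in part from that choice.

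For 12 posterior genes the interaction was negative. In stabilized ECs the fitted difference of 11 of them was still posterior but smaller, and that of Pdgfrb was 2.23, towards the anterior (adjusted p = 0.0781). The interactions were Cd36 at -12.01, Gja5 at -9.66, the butyrylcholinesterase gene Bche at -9.64, Vcam1 at -8.34, Car4 at -8.19, the membrane repair gene Myof at -7.75, Crybg1 at -7.28, Fbln2 at -6.59, Cachd1 at -5.07, Pdgfrb at -4.83, Vwf at -4.76 and Ceacam1 at -2.20. Cd36 had no read in the WT anterior ECs and was at 12.7 and 10 TPM in the stabilized anterior ECs, beside 14.2 and 20.1 TPM in the stabilized posterior ECs. Vcam1 was at 0 and 0.00657 TPM in the WT anterior ECs and at 4.83 and 14.7 TPM in the stabilized anterior ECs. Macrophage and leukocyte markers summed to 197.8 and 269.4 TPM in the stabilized anterior libraries, against 27.2 and 27.05 TPM in WT. Microglia markers summed to 65.36 and 137.1 TPM there, against 26.07 and 17.84 TPM in WT. What such cells contribute to Cd36 and Vcam1 was not tested. For 6 anterior genes the interaction was positive, and the fitted difference of all 6 was towards the posterior in stabilized ECs, from -0.50 for Rps18 to -3.69 for Slc22a8, which passed the test there for Slc22a8 and Slc40a1 (adjusted p = 0.00957 and 0.0154). The interactions were Slc22a8 at 8.79, Srgap3 at 7.38, Grb14 at 6.33, Slc40a1 at 6.28, Rps18 at 5.09 and Mal at 4.78. Slc22a8, a transporter of barrier ECs, was at 1.36 and 1.51 TPM against 0.094 and 0 TPM in WT and at 1.17 and 0.483 TPM against 7.33 and 6.13 TPM in stabilized ECs. Rps18 has many processed copies and its reads are uncertain.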

How the results depend on the processing

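Counts of called genes depended strongly on the fit. Of the 178 called genes, 17 were called under all 14 alternatives for single genes, and 1, Tanc2, changed direction, to -0.30 with the length offset. For the genes higher in the anterior and the posterior ECs (61 and 117), the counts were 315 and 423 with no filter on low counts, 23 and 34 in a fit of the 4 libraries alone, 19 and 54 with the 6 WT libraries, 26 and 60 with a length offset, 486 and 546 with DESeq2, 186 and 313 without stabilized anterior replicate 2, and 60 to 524 and 108 to 353 when 1 WT pituitary EC library was left out. For the EC-enriched genes (21 and 55), they were 62 and 155 with no filter, 15 and 23 with 4 libraries, 8 and 28 with 6, 5 and 18 with all 24, 7 and 25 with the length offset, 59 and 157 with DESeq2, 6 and 20 when enriched in both lobes, 50 and 121 without stabilized anterior replicate 2, and 17 to 54 and 35 to 162 without 1 library. The EC difference against GFP-negative cells (179 genes) gave 1004 with no filter, 105 with the length offset and 187 to 511 without 1 library. The stabilized lobe difference (44 and 55) gave 221 and 230 with no filter, 2 and 13 with the length offset, 217 and 196 with DESeq2, 12 for the posterior with all 24 libraries, 90 and 116 without stabilized anterior replicate 2, and 62 to 136 and 103 to 125 without 1 WT library. The interaction (23) gave 408 with no filter, 14 with the length offset, 434 with DESeq2, 137 without stabilized anterior replicate 2 and 49 to 615 without 1 WT library. No posterior gene kept a posterior-only peak at its start with stricter peaks (0.00%). RLE normalization gave 63 and 119, the stricter count filter 61 and 122, and a TPM minimum of 1 kept 25 and 70 EC-enriched genes. The cause of these shifts was not tested.

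Per the study's methods, the lobes of the 20 to 30 pituitaries of a replicate were separated after dissection, so both lobe pools of a replicate come from the same mice; that equal numbers in the labels mark them is not given in the sources used here. The values show no pairing by number: the correlation of replicate deviations between the WT lobes was 0.00, and -0.03 to 0.09 over the 15 pairs of groups. With the replicate block, 175 of the 178 called genes kept their call, 74 and 147 genes were called, 27 and 72 of them EC-enriched, and with the block in the EC enrichment alone 20 and 55. With 2 pools per lobe and 17260078 counts in the shallower posterior library, small differences and genes near 0 are the least certain.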
